A study of Euphorbia esula with 15 samples.

Results

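Crown buds of leafy spurge (Euphorbia esula) harvested 24 h after removal of the aerial shoots were compared with crown buds harvested 6 h after it. The comparison uses 8 of the 15 RNA-seq libraries of the series, 4 at 24 h and 4 at 6 h, chosen by the time point in the sample titles. The remaining libraries, 3 from intact plants at 0 h and 4 at 72 h, entered the same fit, and the 0 h libraries served to say whether a change between 6 h and 24 h ended, continued or started a response. Every group was of the biotype 1984-ND001, grown as a uniform biotype, moved to a growth chamber 1 week before use, and kept at 27 °C under 16 h of light per day, without glyphosate. The label texts give plant ages of about 3 and about 4 months. The methods state that each replicate pooled the buds of many plants and that all buds were harvested around noon, whereas the hour in the labels reads as midnight. With a noon harvest the 6 h plants were cut in the morning. The 24 h buds had therefore passed a night after the cut and the 6 h buds had not, so time since the cut and the night cannot be told apart here.

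Crown buds are underground adventitious buds that stay paradormant while the shoot above them is intact, which means that signals from the growing shoot hold them back. Auxin moving down the stem, strigolactone made below it and the sugar supply from leaves are the best known of these signals. Removing the shoot lets the buds grow into new stems, which makes leafy spurge hard to control as a weed. Regrowth requires cells to re-enter DNA synthesis and division, to loosen their walls, and to draw on stored or imported carbohydrate.

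Values are RSEM expected counts per component, the group of assembled contigs that Trinity treats as a gene, divided by a size factor per library and called normalized counts here. The 24 h libraries held 3750902 to 8766393 expected counts and the 6 h libraries 2589107 to 7981890. Of 223732 components, 17913 exceeded 10 normalized counts in every library of 24 h or of 6 h and were tested. Of these, 16281 passed in both groups, 1089 passed through 24 h alone and 543 through 6 h alone. In the last 2 kinds the filter favours a higher level in the group that passed. By the test below, 502 of the 1089 were called higher at 24 h and 255 of the 543 lower. On log2 values the correlation of 2 libraries of the same group was 0.976 to 0.985, and that of a 24 h with a 6 h library 0.930 to 0.953. Names are those of the closest Arabidopsis gene (AGI) or of the best protein hit of the contig with the most counts, so they mark similarity to a known gene in Arabidopsis or another plant. Components carry no genome position in the deposited table.

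Between 6 h and 24 h, 7378 of the 17913 components, or 41.2%, changed. A change was called where edgeR's quasi-likelihood test gave a Benjamini-Hochberg adjusted p under 0.05. Of these, 3262 (18.2% of those tested) were higher at 24 h and 4116 (23.0%) were lower. The median change over all components tested was -0.02 on the log2 scale and the median size of a called change was 0.56. At least a 2-fold change was seen in 1082 called components, of which 511 were higher and 571 lower. The 4 values at 24 h lay wholly outside the 4 values at 6 h in 6467 components (36.1% of those tested), 5858 of them called.

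At 6 h against 0 h, 3402 components (19.0%) had been called, 1833 (10.2%) higher and 1569 (8.76%) lower, and at 24 h against 0 h 8896 (49.7%) were called, 4287 (23.9%) higher and 4609 (25.7%) lower. An early response, called at 6 h against 0 h, counted as ended where the component was then called at 24 h against 6 h in the opposite direction, and as continued where it was called in the same direction. A response started after 6 h where the component was called at 24 h against both 6 h and 0 h in the same direction, was not called at 6 h against 0 h, and had moved at 6 h by less than 50% of its log2 change at 24 h. These contrasts share the 6 h and the 0 h libraries, so the counts are descriptions: a 6 h mean that is high by chance adds to the ended class by itself.

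By this definition 946 early responses (5.28% of the components tested) ended, 320 by rising (1.79%) and 626 by falling (3.49%). In 819 of them (4.57%) the 24 h level lay nearer to the 0 h than to the 6 h level on the log2 scale, here termed a full return, with 532 early rises that fell back (2.97%) and 287 early falls that came back up (1.60%). A full return could also pass beyond the 0 h level. For example, an enolase (comp85564_c0) was called lower at 24 h than at 0 h (log2 change -2.35), and a component closest to ABF3 (comp131394_c0) was called higher (1.15). A further 766 early responses (4.28%) continued, 306 higher (1.71%) and 460 lower (2.57%). Another 1690 (9.43%) were not called between 6 h and 24 h, 901 early rises (5.03%) and 789 early falls (4.40%). Most of the called components, 4221 or 57.2%, started after 6 h, which was 23.6% of those tested, with 1919 higher (10.7%) and 2302 lower (12.9%). The remaining 1445 components called at 24 h against 6 h met none of these definitions. Of the early rises 34.2% ended, and of the early falls 20.4%. The count of continued responses depended on single libraries, and was 468 without 6 h replicate 2 and 509 without 0 h replicate 2. Early calls rest on 3 libraries at 0 h. Of 73 components picked for naming that had an early call, 13 lost it without at least 1 of the 3, and where a statement rests on one of them this is given.

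**Figure D1:**
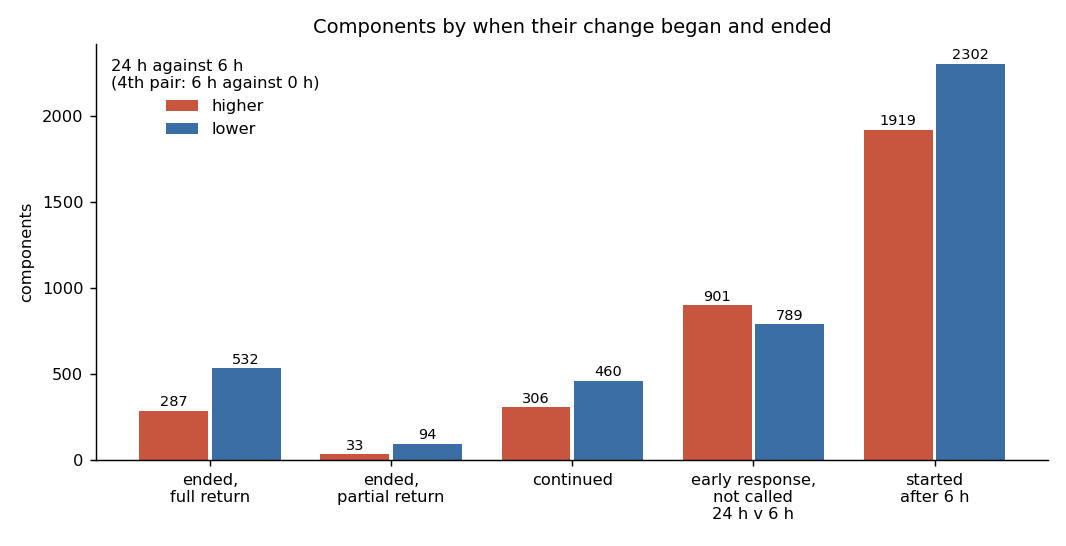
Number of components (vertical axis, a count) in each class of response, with red bars for components higher and blue bars for components lower at 24 h against 6 h. For early responses not called between 6 h and 24 h, the 4th pair, the colours give the direction at 6 h against 0 h. Responses that started after 6 h made the tallest pair, with 1919 higher and 2302 lower. The 1445 components called at 24 h against 6 h in no class are not drawn.

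The 10 largest decreases, by the rule for named genes, were led by an ACC oxidase, the enzyme of the last step of ethylene synthesis. The component comp118906_c0 (AT2G19590, ACO1) had 12.5, 13.1, 7.72 and 12.3 normalized counts in the 4 libraries at 24 h, against 358, 336, 253 and 311 at 6 h. The groups were far apart, and the log2 change was -4.77 ± 0.39 (SE, adjusted p = 6.91e-09). With 7.72 in 24 h replicate 3, it had entered the test through 6 h alone. So had 3 of the other 9 (the tonoplast protein, the hemoglobin and the beta-xylosidase), and the filter favoured a fall in these 4. The ACC oxidase averaged 225 at 0 h, and at 72 h it had 371 in replicate 4 and 70.7 to 89 in the other libraries. The other 9 were a tonoplast intrinsic protein (comp107294_c0, a vacuolar water channel, log2 change -3.35), an enolase (comp85564_c0, -3.28), a non-symbiotic hemoglobin (comp89047_c0, -3.21), histones H2AX and H2A (comp85027_c0, -3.04, and comp93890_c0, -3.01), a beta-xylosidase (comp135652_c0, -2.80), an alcohol dehydrogenase (comp131308_c0, -2.72), a stem-specific protein tsjt1 (comp127192_c1, -2.59) and a PEARLI 1-like protein (comp114606_c1, -2.57). Of these 10, 7 were early rises that ended and 3 were falls that started after 6 h. ACO1, among the 3, had 214 to 236 at 0 h, below its lowest 6 h value of 253. Its log2 change of 0.49 at 6 h against 0 h was not called, so an early rise is possible. The beta-xylosidase, among the 7, had 224 to 425 at 72 h. The enolase is a minor component of its AGI: the most abundant other component with that AGI averaged 2155 at 24 h and 3320 at 6 h, with a log2 change of -0.62.

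The 10 largest increases were led by a senescence-specific cysteine protease (comp110242_c1, AT5G45890), which in Arabidopsis marks ageing leaves. It had 150, 252, 285 and 197 normalized counts at 24 h, against 4.94, 32.5, 57.1 and 35.0 at 6 h, and the log2 change was 2.82 ± 0.31 (SE, adjusted p = 3.80e-07). With 4.94 in 6 h replicate 1, it had entered the test through 24 h alone. So had the component with the kinase hit, the sulfate transporter and the nucleoredoxin named next, and the filter favoured a rise in these 4. The 0 h mean of the protease was 77.4, and its early fall was not called without 0 h replicate 1 or 2. Next came a component with a Nek8 kinase hit and the AGI AT3G55580 (comp123578_c1, 2.68), whose kinase name rests on the hit, and a sulfate transporter (comp122548_c0, 2.64). A component with a periplasmic beta-glucosidase hit and the AGI AT5G49360 (comp131254_c0, 2.42) followed. The others were a nucleoredoxin (comp135918_c0, 2.21), Rubisco activase (comp104693_c1, 2.17), a linker histone h1/h5 (comp112748_c0, 2.11) and an amino acid transporter (comp122112_c0, 2.04), with a serine-pyruvate aminotransferase (comp103606_c0, 2.02) and a DNA binding protein closest to ABF3 (comp131394_c0, 2.01). Of these 10, 5 reversed an early fall, which for the sulfate transporter was not called without 0 h replicate 3, and 5 started after 6 h by the definition above. Of the latter, the aminotransferase had 31.5 to 38.1 at 0 h, below its lowest 6 h value of 48. Its log2 change of 0.79 at 6 h against 0 h was not called, so an earlier start is possible. Other components with the same AGI moved the same way for the kinase hit (log2 change 1.09), the nucleoredoxin (0.74) and the amino acid transporter (1.01). For the kinase hit and the nucleoredoxin the other component was the more abundant, averaging 168 and 375 at 24 h and 78.3 and 222 at 6 h.

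**Figure D2:**
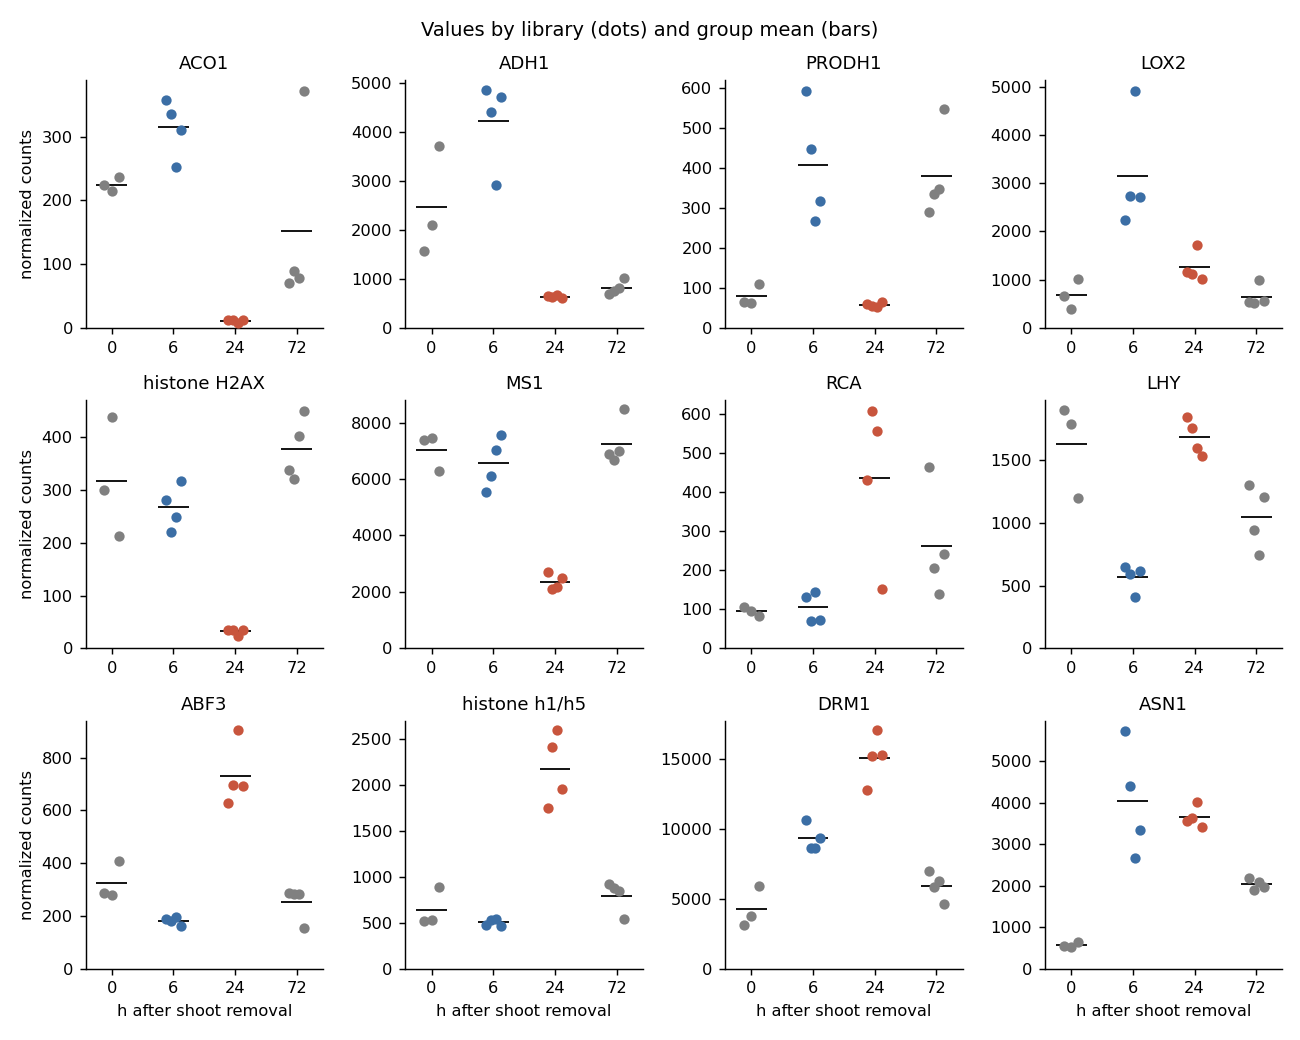
Normalized counts (vertical axis, linear from 0) of 12 components in each library by hours since shoot removal (horizontal axis), with 24 h in red, 6 h in blue and the other times in grey; dots are libraries and bars are group means. ACO1, histone H2AX and MS1 had their lowest means at 24 h, ADH1, PRODH1 and LOX2 fell back from a 6 h peak, and the 4 libraries of ASN1 at 24 h lay within the range at 6 h.

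Hypoxia and fermentation genes fell. Of the 15 members 14 were lower at 24 h than at 6 h and none was higher, with a median log2 change of -1.28. These genes serve metabolism under low oxygen. Their course up to 6 h had differed, since 3 members had risen from 0 h to 6 h and then fell back, 5 had fallen early and fell further, and 6 fell only after 6 h. These numbers moved with the 0 h libraries: the early rises were 2 without 0 h replicate 1 or 2 and 6 without replicate 3, and the early falls 4, 3 and 5 without replicates 1, 2 and 3. The remaining member, a hemoglobin (comp104840_c0) with the AGI of PGB1 below, averaged 93.3 at 24 h and 117 at 6 h. Its log2 change was -0.32 ± 0.15 (SE, adjusted p = 0.0914), which was called, at -0.41, without 24 h replicate 3. Without 24 h replicate 4, 1 member was called higher.

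Alcohol dehydrogenase (ADH1, comp131308_c0), which regenerates NAD+ by making ethanol, had 643, 639, 666 and 609 normalized counts at 24 h, against 4848, 4402, 2922 and 4716 at 6 h. Every 24 h value lay below every 6 h value, by 6.61-fold in the fit (log2 change -2.72 ± 0.20 SE, adjusted p = 1.52e-09), and below the 0 h mean of 2459. The 0 h values of 1576, 2097 and 3704 overlapped with those at 6 h, and the early rise (log2 change 0.78) was not called without 0 h replicate 1 or 2. The component closest to SAD6 (comp119993_c0), an acyl carrier protein desaturase induced by low oxygen in Arabidopsis, had 24.4, 13.5, 7.72 and 19.0 at 24 h, against 770, 596, 424 and 985 at 6 h, a log2 change of -5.44 ± 0.43 (SE). Hemoglobin (PGB1, comp89047_c0, the less abundant of its 2 components), which scavenges nitric oxide, had 11.3, 14.9, 6.44 and 8.92 at 24 h, against 111, 108, 47.3 and 130 at 6 h. These 3 were the early rises of the list, and the last 2, with values under 10 at 24 h, had entered the test through 6 h alone. PCO1, an oxygen-sensing plant cysteine oxidase, averaged 31.3 ± 5.70 at 24 h and 237 ± 51.9 at 6 h (SD, n = 4 each), and pyruvate decarboxylase (PDC1), the enzyme before ADH, averaged 836 ± 14.6 at 24 h and 1805 ± 221 at 6 h. LBD41 (comp123383_c1, 1 of its 2 components) and HRA1, transcriptional regulators of the low-oxygen response in Arabidopsis, had already fallen by 6 h (log2 change -1.18 and -0.78 against 0 h) and fell again by 24 h (-2.12 and -2.38 against 6 h). The early fall of HRA1 was not called without 0 h replicate 2.

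Sugar-related genes separated into those whose early rise ended and those whose early rise was kept. In the list of sugar starvation and branched-chain amino acid breakdown, 18 of 24 members had been called higher at 6 h against 0 h. Between 6 h and 24 h only 2 of the 24 were called higher and 3 lower, and the median log2 change was -0.02, the same as that of all components tested. Of the 18 early rises 15 were not called between 6 h and 24 h. These genes are switched on in Arabidopsis when sugar runs short.

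Asparagine synthetase (ASN1, comp115335_c0), which stores nitrogen from broken-down protein, had 3568, 3626, 4018 and 3422 normalized counts at 24 h, against 5725, 4412, 2677 and 3351 at 6 h. The 24 h values lay within the 6 h range, and the log2 change was -0.15 ± 0.15 (SE, adjusted p = 0.452), with a 0 h mean of 573. The beta subunit AKINB1 of the energy-sensing SnRK1 kinase averaged 276 ± 63.8 at 24 h and 273 ± 53.3 at 6 h (SD, n = 4 each), against a 0 h mean of 85.9. MCCA, a subunit of the leucine-degrading methylcrotonyl-CoA carboxylase, averaged 287 ± 21.3 at 24 h and 257 ± 60.1 at 6 h.

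In contrast, proline dehydrogenase (PRODH1, comp124090_c0), the enzyme that starts proline breakdown, had 60.1, 54.6, 51.5 and 65.6 normalized counts at 24 h, against 593, 448, 268 and 317 at 6 h. Its log2 change was -2.84 ± 0.23 (SE, adjusted p = 5.26e-09), and its 0 h mean of 79.2 made this a full return. At 72 h the mean was 380. The transcription factor BZIP63 had 60.1, 62.3, 41.2 and 51.3 at 24 h, against 211, 176, 106 and 116 at 6 h, and also returned (log2 change -1.51 ± 0.19 SE).

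Among genes that move and split sucrose more fell than rose. Of the 27 members of the sucrose and hexose list 14 were lower and 3 higher at 24 h (median log2 change -0.37; 1 higher without 24 h replicate 3), and 9 of the 14 were early rises that ended. Sucrose synthase SUS3 had 724, 616, 971 and 648 normalized counts at 24 h, against 1880, 1909, 1734 and 1842 at 6 h, and its 0 h mean of 806 lay close to the 24 h values (log2 change -1.32 ± 0.14 SE, adjusted p = 2.58e-07). The hexose carrier STP1 averaged 329 ± 39.1 at 24 h and 618 ± 100 at 6 h, and the phloem sucrose carrier SUC2 (comp130060_c1) averaged 836 ± 126 at 24 h and 1322 ± 71.8 at 6 h (SD, n = 4 each), each with a 0 h mean near the 24 h one (323 and 759). SUS4, a far more abundant sucrose synthase, had not been called at 6 h and fell only later, with 3216, 2758, 2682 and 3335 at 24 h against 7940, 7631, 8039 and 8208 at 6 h. A sucrose phosphate synthase (SPSC), which makes sucrose, went the other way, with 25, 25.7, 31.5 and 34.6 at 24 h against 1.23, 5.67, 6.53 and 10.5 at 6 h (log2 change 2.25 ± 0.32 SE). This component had entered the test through 24 h alone.

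Starch breakdown genes kept falling. Of 19 members 14 were lower at 24 h and 1 higher (median log2 change -0.44), and all 8 that had been called lower at 6 h were called lower again. Plastid starch phosphorylase (PHS1, comp103591_c0) had 311, 354, 426 and 321 normalized counts at 24 h, against 430, 506, 777 and 517 at 6 h, while its 0 h mean was 2582. The later step (log2 change -0.64 ± 0.16 SE, adjusted p = 0.00341) was thus small beside the early one (-2.23). Of the 17 starch synthesis genes 6 were higher (35.3%) and 4 lower (23.5%), against 18.2 and 23.0% of all components tested. The 4 became 1 without 24 h replicate 2, and 2 without 24 h replicate 1, 24 h replicate 4 or 6 h replicate 3. Starch synthases SS1 and SS2, which lengthen glucan chains, were higher at 24 h than at 6 h (log2 changes 0.60 and 0.45), whereas the ADP-glucose pyrophosphorylase subunit APL2 (comp127803_c0) was lower, with 82.8, 85.8, 101 and 83.7 at 24 h against 190, 251, 300 and 217 at 6 h. The amylose-making GBSS1, at 6716 in intact plants, averaged 1539 ± 101 at 24 h and 1587 ± 258 at 6 h (SD, n = 4 each), so that its early fall had neither gone on nor been undone (log2 change -0.04 ± 0.10 SE).

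The joint list of phenylpropanoid and flavonoid genes showed the same lasting early fall. Of its 23 components 13 had been called lower at 6 h, and 11 of these were not called between 6 h and 24 h, where 2 members of the list were higher and 3 lower. Chalcone synthase (CHS, comp114422_c0), the entry enzyme of the flavonoid pathway, had 1217, 859, 647 and 1142 normalized counts at 24 h, against 778, 919, 1140 and 1250 at 6 h, and averaged 3637 at 0 h. The groups overlapped and the log2 change was -0.08 ± 0.18 (SE, adjusted p = 0.749). In the lignin list 5 of 17 were lower (29.4%) and 2 higher (11.8%), against 23.0 and 18.2% of all components tested. Of the 5, 4 were early rises that ended (2 without 0 h replicate 2). Among them C3PH, a hydroxylase of monolignol synthesis, averaged 586 ± 40.4 at 24 h and 1160 ± 120 at 6 h, and the methyltransferase CCOAOMT1 (comp107631_c0) averaged 276 ± 34.7 at 24 h and 528 ± 23.0 at 6 h (SD, n = 4 each).

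Histone genes were among the responses that started after 6 h. Of 18 histone components 15 were lower and 3 higher at 24 h, with a median log2 change of -1.02, and 13 of the 15 were falls that started after 6 h. Core histones are made mainly while DNA is copied. Of the 15, 3 had entered the test through 6 h alone. Histone H2AX (comp85027_c0) had 35.2, 35.7, 22.5 and 34.6 normalized counts at 24 h, against 281, 221, 248 and 318 at 6 h. An abundant H2A (comp105365_c0) had 429, 408, 312 and 414 at 24 h, against 2218, 2079, 2030 and 2228 at 6 h, with a log2 change of -2.45 ± 0.13 (SE, adjusted p = 4.07e-11). All of these values at 24 h were below the lowest at 6 h. At 72 h the means were 378 for H2AX and 3170 for this H2A, above the 0 h means of 317 and 2074.

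The 3 histone components that rose were all linker histones of the H1 type, which bind between nucleosomes. The component with the h1/h5 hit and the AGI AT2G18050 (comp112748_c0, a gene induced by drought in Arabidopsis) had 1752, 2414, 2598 and 1961 normalized counts at 24 h, against 475, 533, 542 and 471 at 6 h. Its log2 change was 2.11 ± 0.16 (SE, adjusted p = 4.46e-09), while 3 other H1 components were lower. The most abundant of these, comp117848_c1, had a log2 change of -0.47.

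Most DNA replication genes were lower at 24 h than at 6 h. Of 21 members 17 were lower and 3 higher, with a median log2 change of -1.11. At 6 h against 0 h the median was -0.58 and 12 had been called lower, of which 11 fell again. This early step depended on the controls. Summed over the list, the 6 h libraries held 2961 to 3671 normalized counts, against 5344, 5478 and 3690 in 0 h replicates 1, 2 and 3. The 12 became 5, 8 and 14 without 0 h replicates 1, 2 and 3, and the 11 became 4, 7 and 13. Ribonucleotide reductase supplies DNA building blocks, and its small subunit TSO2 had 90.8, 77.2, 37.3 and 84.8 normalized counts at 24 h, against 311, 293, 274 and 355 at 6 h (log2 change -2.09 ± 0.17 SE, adjusted p = 9.62e-09), after an early fall not called without 0 h replicate 1 or 2. The sliding clamp PCNA2 had 132, 98.0, 65.0 and 155 at 24 h, against 202, 204, 248 and 304 at 6 h, and averaged 403 at 0 h. CDC45, part of the replicative helicase, had not been called at 6 h and averaged 17.6 ± 6.15 at 24 h and 78.9 ± 9.92 at 6 h (SD, n = 4 each). For MCM2, a helicase subunit with 3 components, 1 of them (comp137427_c0) was higher at 24 h while 2 were lower.

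Mitotic genes took another course up to 6 h. In that list 10 of 16 were lower and 3 higher at 24 h (median log2 change -0.61), but at 6 h against 0 h the median had been 0.49, with 7 members higher and none lower (4 higher without 0 h replicate 3). Cyclin CYCB1;2, which drives entry into mitosis, had 104, 138, 132 and 100 normalized counts at 24 h, against 233, 189, 176 and 178 at 6 h, and averaged 121 at 0 h and 340 at 72 h. The early rise of this cyclin had thus gone by 24 h. CYCB2;2, CYCB2;4 and 1 component of CDC20.1 were the other early rises that ended. The mitotic kinases CDKB1;2 and CDKB2;2 had not been called at 6 h and fell later: CDKB2;2 had 96.4, 101, 94.0 and 104 at 24 h, against 310, 253, 209 and 269 at 6 h (log2 change -1.40 ± 0.12 SE, adjusted p = 1.59e-08). The CYCB2;4 call was lost without 6 h replicate 1 or 2, and its early call without 0 h replicate 1 or 3. Without 0 h replicate 3, 2 members rather than 4 were early rises that ended. Of the 14 genes of cell cycle entry 5 were lower (3 without 6 h replicate 2) and 1 higher, and the core kinase CDKA;1 averaged 634 at 24 h and 619 at 6 h.

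**Figure D3:**
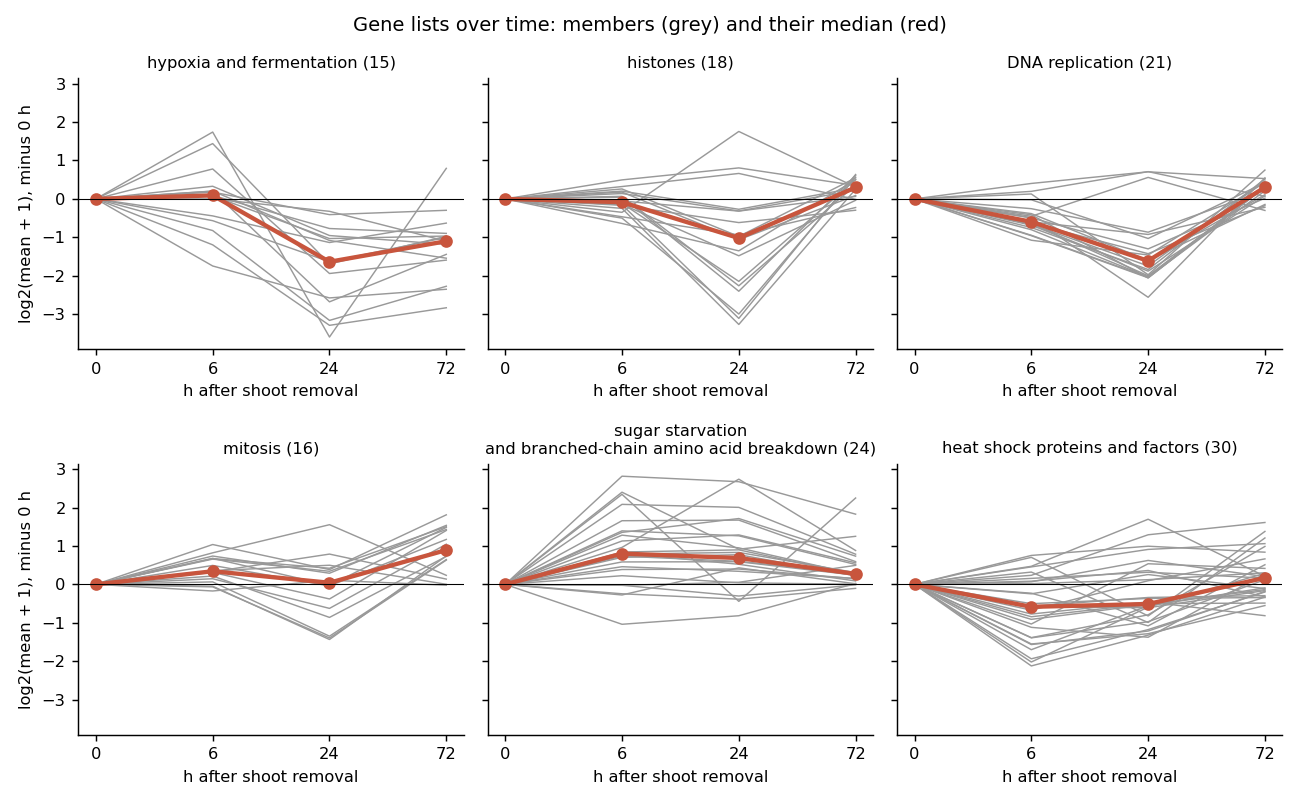
Change of each member of 6 gene lists (grey lines) and their median (red) by hours since shoot removal (horizontal axis), as log2 of the group mean plus 1, minus the 0 h value (vertical axis); the number of members is in the panel title. The median for histones and for DNA replication was lowest at 24 h and above the 0 h level at 72 h, whereas that of hypoxia and fermentation stayed below it.

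Genes of the methionine and methyl cycle, which supplies methyl groups and feeds ethylene and polyamine synthesis, were lower at 24 h in all 8 members, with a median log2 change of -1.05. Of the 8, 6 were falls that started after 6 h and 2 were early rises that ended, and leaving out any 1 of the 0 h libraries left at most 1 of these early rises called. Methionine synthase (MS1, comp133741_c0) had 2696, 2101, 2161 and 2508 normalized counts at 24 h, against 5528, 6113, 7032 and 7550 at 6 h, with no overlap (log2 change -1.47 ± 0.11 SE, adjusted p = 2.67e-09). Adenosylhomocysteine hydrolase (SAHH1, comp114453_c1), which clears the by-product of methylation, had 1060, 752, 915 and 1332 at 24 h, against 1965, 1983, 2442 and 2822 at 6 h. At 72 h the means were 7245 for MS1 and 2588 for SAHH1, beside 7023 and 2604 at 0 h.

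In 4 further lists of growth-related genes more members were lower than the 23.0% of all components tested, though many were not called. Of 99 cytosolic ribosomal protein components 57 were lower and 7 higher (median log2 change -0.30), with 4 higher without 6 h replicate 2, and of the 57 falls 37 started after 6 h and 18 continued (14, 7 and 9 without 0 h replicates 1, 2 and 3). The 57 lower were 57.6% of the list. The 5 most changed of the 7 that rose averaged at most 233 at 24 h, whereas an abundant member that fell, comp112827_c1, averaged 4748 ± 557 at 24 h and 6821 ± 660 at 6 h (SD, n = 4 each). Of 12 tubulin components, the building blocks of microtubules and their folding cofactors, 9 were lower (75%) and 1 higher (median -0.57). A beta-tubulin (comp128449_c2) had 560, 436, 480 and 597 at 24 h, against 1191, 1138, 1225 and 1420 at 6 h. Of 10 cellulose synthase components 5 were lower (50%) and none higher (median -0.32), and of 15 aquaporin components 6 were lower (40%) and none higher (median -0.20).

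Wall-loosening genes divided by family. In the joint list of 20 expansins and xyloglucan enzymes 10 were lower and 5 higher, and the 5 that rose were all xyloglucan enzymes, while 8 of the 10 that fell were expansins. Expansins loosen the wall without cutting it, and xyloglucan endotransglucosylases cut and rejoin its tethers. Beta-expansin 3 (comp118212_c1) had 24.4, 14, 14.2 and 31.2 normalized counts at 24 h, against 79.0, 93.9, 63.7 and 125 at 6 h, and expansin-A4 (comp131166_c0) had 364, 344, 304 and 451 at 24 h, against 745, 672, 914 and 1030 at 6 h. In contrast the component with the hit XTH protein 9 (comp127998_c0, AT5G65730) had 1368, 1622, 1267 and 1407 at 24 h, against 514, 458, 534 and 428 at 6 h (log2 change 1.56 ± 0.10 SE, adjusted p = 2.49e-10). Its 0 h mean of 276 made this rise a continued one. Another xyloglucan enzyme (comp131003_c0) with the same AGI also continued to rise, with a log2 change of 1.63.

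The largest continued rises, beside the xyloglucan enzymes, were a component with a nop56 hit and the AGI AT3G22640 (comp132057_c0, 1.62), whose names point to unlike proteins, formate dehydrogenase (comp121206_c0, 1.43) and a component (comp137755_c0) of which only 1.66% of the counts lay on the contig with its histidine kinase hit. Formate dehydrogenase, a mitochondrial enzyme of one-carbon oxidation, had 9448, 10537, 12082 and 9852 normalized counts at 24 h, against 4235, 4139, 3560 and 3644 at 6 h, and a 0 h mean of 3003. Its early rise was not called without 0 h replicate 1 or 2. The largest continued falls were LBD41 and TSO2, named above, the replication factor RFA1 (comp107765_c0, -1.91), a pectate lyase (comp118633_c1, -1.69) and the large reductase subunit RNR1 (comp120881_c0, -1.65). The early falls of RFA1, the pectate lyase and RNR1 were not called without 0 h replicate 1 or 2.

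Photosynthesis genes were more often higher than lower at 24 h. Of 36 components of the light reactions 11 were higher and 1 lower (median log2 change 0.33), 9 of the 11 having started after 6 h. The list had already moved up by 6 h, with a median log2 change of 0.52 against 0 h, 10 members called higher and none lower. These 10 early rises became 4, 4 and 6 without 0 h replicates 1, 2 and 3. The 11 became 21 without 24 h replicate 4 and 6 without 6 h replicate 2. Of 12 Calvin cycle components 6 were higher and 3 lower (median 0.58), 2 of the 6 having entered the test through 24 h alone. Rubisco activase (RCA), which reactivates the carbon-fixing enzyme, had 430, 608, 557 and 153 normalized counts at 24 h, against 132, 69.6, 143 and 73.6 at 6 h. The lowest value at 24 h, in replicate 4, was close to the highest at 6 h, and the log2 change was 2.17 ± 0.34 (SE, adjusted p = 3.50e-05). The antenna protein LHCB5 had 529, 717, 738 and 309 at 24 h, against 296, 189, 235 and 164 at 6 h, with replicate 4 again the lowest. The plastid aldolase FBA2 (comp107375_c0) had 211, 273, 257 and 56.9 at 24 h, against 75.3, 34.0, 65.3 and 31.5 at 6 h, so these groups overlapped. Summed over the light reaction list, 24 h replicate 4 held 5766 normalized counts and the other 24 h libraries 8861 to 12752, against 6233 to 8547 at 6 h. The small Rubisco subunit RBCS1A fell in the same libraries, with 476, 586, 581 and 495 at 24 h, against 979, 911, 931 and 884 at 6 h (log2 change -0.79 ± 0.10 SE). The peroxisomal serine-pyruvate aminotransferase (comp103606_c0) of photorespiration had 228, 331, 291 and 133 at 24 h, against 88.8, 48.0, 66.9 and 51.4 at 6 h.

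Heat shock genes came back in part from an early fall. Of 30 members 15 were higher and 3 lower at 24 h (median log2 change 0.39), after 16 had been called lower at 6 h against 0 h, and 8 of those 16 rose again. Of the 15 higher members 3 had entered the test through 24 h alone. The chaperone HSP90.1 (comp135518_c0) had 287, 285, 296 and 319 normalized counts at 24 h, against 116, 113, 148 and 157 at 6 h (log2 change 1.17 ± 0.13 SE, adjusted p = 3.85e-07), and averaged 438 at 0 h. The disaggregase HSP101 had 797, 725, 823 and 873 at 24 h, against 439, 475, 462 and 512 at 6 h, and averaged 753 at 0 h, a full return. HSP70-4 (comp112561_c0) averaged 815 ± 52.1 at 24 h and 467 ± 77.0 at 6 h (SD, n = 4 each), still far below its 0 h mean of 2039. The 3 that fell were all BiP chaperones of the endoplasmic reticulum: BIP2 had 1548, 1435, 1241 and 1430 at 24 h, against 2184, 2396, 2592 and 3027 at 6 h. Of 11 antioxidant enzymes 1 was higher and 4 lower, with ascorbate peroxidase APX1 at 2237 ± 277 at 24 h and 3471 ± 499 at 6 h.

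Several clock genes were higher at 24 h than at 6 h. In the clock list 6 of 15 were higher and 1, GI, was lower (median log2 change 0.12), a call lost without replicate 2 of 24 h or of 6 h. The morning factor LHY had 1843, 1756, 1599 and 1536 normalized counts at 24 h, against 650, 591, 407 and 615 at 6 h (log2 change 1.56 ± 0.16 SE, adjusted p = 1.45e-07), and 1628 on average at 0 h. Its relatives RVE1 (comp124262_c0) and RVE8 averaged 334 ± 9.15 and 206 ± 29.2 at 24 h, against 126 ± 20.3 and 84.5 ± 12.7 at 6 h (SD, n = 4 each). LHY and RVE1 thus returned from an early fall, whereas RVE8 had not been called at 6 h. According to the methods the buds of both times were taken at the same hour, and the part of the day-night cycle in these changes was not tested. Among 11 light signalling genes 2 were higher and 2 lower (18.2% each), near the 18.2 and 23.0% of all components tested.

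Abscisic acid genes, which in many buds accompany dormancy, moved in both directions. In this list 11 of 33 were higher (33.3%) and 9 lower (27.3%), against 18.2 and 23.0% of all components tested (median log2 change 0.15), and 9 of these 20 ended an early response. The receptor PYL4 (comp121776_c1) had 223, 149, 131 and 209 normalized counts at 24 h, against 447, 416, 392 and 546 at 6 h, and 239 on average at 0 h. The phosphatase ABI1 (comp131810_c0), which keeps the pathway off, had 406, 463, 505 and 489 at 24 h, against 241, 208, 259 and 203 at 6 h. The transcription factor ABF3 (comp131394_c0), which acts at the end of the chain, had 630, 698, 903 and 691 at 24 h, against 188, 181, 196 and 164 at 6 h (log2 change 2.01 ± 0.15 SE, adjusted p = 2.31e-09). Of the receptor components, 4 of PYL4, PYL8 and PYL9 had risen early and fell back, while another of PYL8 rose further. ABI1, ABF3 and ABF4 had fallen early and rose. The synthesis enzyme closest to ABA2 (comp98466_c1) averaged 1059 ± 24.3 at 24 h and 506 ± 34.1 at 6 h (SD, n = 4 each), while 3 other components with that AGI fell.

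LOX2, AOS and AOC4, enzymes of jasmonate synthesis, were lower at 24 h than at 6 h, but the list as a whole was near the background. Of its 26 members 3 were higher (11.5%) and 7 lower (26.9%), against 18.2 and 23.0% of all components tested (median log2 change -0.18), and 4 of the 7 were early rises that ended. Jasmonates are made within hours of wounding. The lipoxygenase LOX2 (comp137538_c0), which oxidises the fatty acid precursor, had 1161, 1114, 1726 and 1019 normalized counts at 24 h, against 2236, 2732, 4921 and 2716 at 6 h (log2 change -1.32 ± 0.25 SE, adjusted p = 2.27e-04), beside a 0 h mean of 693. Allene oxide synthase (AOS, comp115476_c0) had 466, 333, 509 and 388 at 24 h, against 685, 864, 1822 and 822 at 6 h, so that 6 h replicate 3 was the highest for both enzymes. The early rise of AOS was not called without 0 h replicate 1 or 2. Allene oxide cyclase AOC4, the next enzyme, had fallen by 6 h and fell again, to 293 ± 29.7 at 24 h against 590 ± 76.8 at 6 h (SD, n = 4 each).

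Of 16 ethylene genes 5 were higher (31.2%) and 3 lower (18.8%), against 18.2 and 23.0% of all components tested (median log2 change 0.09). The 5 became 3 without replicate 3 of 24 h or of 6 h. Beside the fall of ACO1, another ACC oxidase (ACO4, comp131480_c0), far more abundant, was higher at 24 h, with a mean of 4403 ± 255 against 3062 ± 229 at 6 h (SD, n = 4 each). CTR1, the kinase that represses the pathway, was lower (log2 change -0.54 ± 0.08 SE, adjusted p = 2.13e-05). Of 20 gibberellin genes 4 were higher (20%) and 5 lower (25%), near the 18.2 and 23.0% of all components tested (median -0.02). The 5 became 3 without 24 h replicate 2, 24 h replicate 3 or 6 h replicate 4. The growth hormone's receptors were higher: GID1A had 574, 675, 683 and 648 normalized counts at 24 h, against 401, 368, 460 and 352 at 6 h, and GID1B (comp137038_c0) had 352, 349, 364 and 383 at 24 h, against 257, 258, 170 and 196 at 6 h. GA2OX2, which inactivates gibberellin, had 39.1, 41.6, 43.1 and 41.3 at 24 h, against 90.1, 112, 65.3 and 81.8 at 6 h, and 38.7 on average at 0 h, a full return.

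In the strigolactone and branching list 2 of 9 were higher and 2 lower (22.2% each), against 18.2 and 23.0% of all components tested (median log2 change -0.09). MAX1 (comp133422_c0), which makes the active hormone, had 26.1, 23.9, 28.3 and 24.5 normalized counts at 24 h, against 69.1, 69.6, 60.4 and 64.2 at 6 h (log2 change -1.37 ± 0.19 SE, adjusted p = 8.20e-06), while another component with that AGI (comp132047_c0) was higher by 0.34, a call lost when any 1 of 4 libraries was left out (24 h replicates 1 and 2, 6 h replicates 2 and 4). MAX3 returned from an early rise, with a mean of 70.5 ± 3.66 at 24 h and 107 ± 16.2 at 6 h. The receptor D14, raised at 6 h from a 0 h mean of 317, averaged 668 ± 60.1 at 24 h and 626 ± 59.4 at 6 h (SD, n = 4 each). The dormancy-associated gene DRM1, a usual marker of resting buds, had 12798, 15209, 17035 and 15272 at 24 h, against 10655, 8608, 8630 and 9348 at 6 h (log2 change 0.70 ± 0.15 SE, adjusted p = 9.18e-04), so its early rise went on. At 72 h its mean was 5924.

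Cytokinin, which promotes bud outgrowth, had 5 of 19 members higher (26.3%) and 1 lower (5.26%). The shares of all components tested were 18.2 and 23.0%, and the median log2 change of the list was 0.07. The response regulator ARR4, a feedback gene of cytokinin signalling, had 147, 123, 93.3 and 148 normalized counts at 24 h, against 59.2, 62.9, 52.1 and 77.1 at 6 h. LOG5 (comp111122_c0), which activates cytokinin, and CKX7, which degrades it, were both higher (log2 changes 0.71 and 0.72). Of 24 auxin genes 5 were higher (20.8%) and 4 lower (16.7%), against 18.2 and 23.0% of all components tested (median -0.07). GH3.6, which conjugates auxin, was at 427 ± 34.2 at 24 h and 573 ± 86.5 at 6 h, still above its 0 h mean of 210. The 5 auxin genes became 3 without 24 h replicate 2 or 6 h replicate 1, and 2 without 6 h replicate 2. Of 10 brassinosteroid genes 2 were higher (20%) and 1 lower (10%, median 0.08).

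Of 7 nitrogen assimilation genes 4 were lower and 1 higher (median log2 change -0.54): nitrate reductase NIA1 had 82.8, 59.6, 104 and 83.7 normalized counts at 24 h, against 171, 233, 179 and 259 at 6 h, and nitrite reductase NIR1, the next enzyme, had a log2 change of -0.93. Of 12 NAC transcription factors 6 were higher and none lower (median 0.31). Of 29 WRKY factors 3 were higher (10.3%) and 1 lower (3.45%, median 0.05), and of 16 autophagy genes 4 were higher (25%) and none lower (median 0.07). The shares of all components tested were 18.2% higher and 23.0% lower. The 4 autophagy genes became 1 or 2 without 24 h replicate 2 or 3 or without any 1 of the 6 h libraries, and other counts of 3 or fewer in a list also moved when single libraries were left out.

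**Figure D4:**
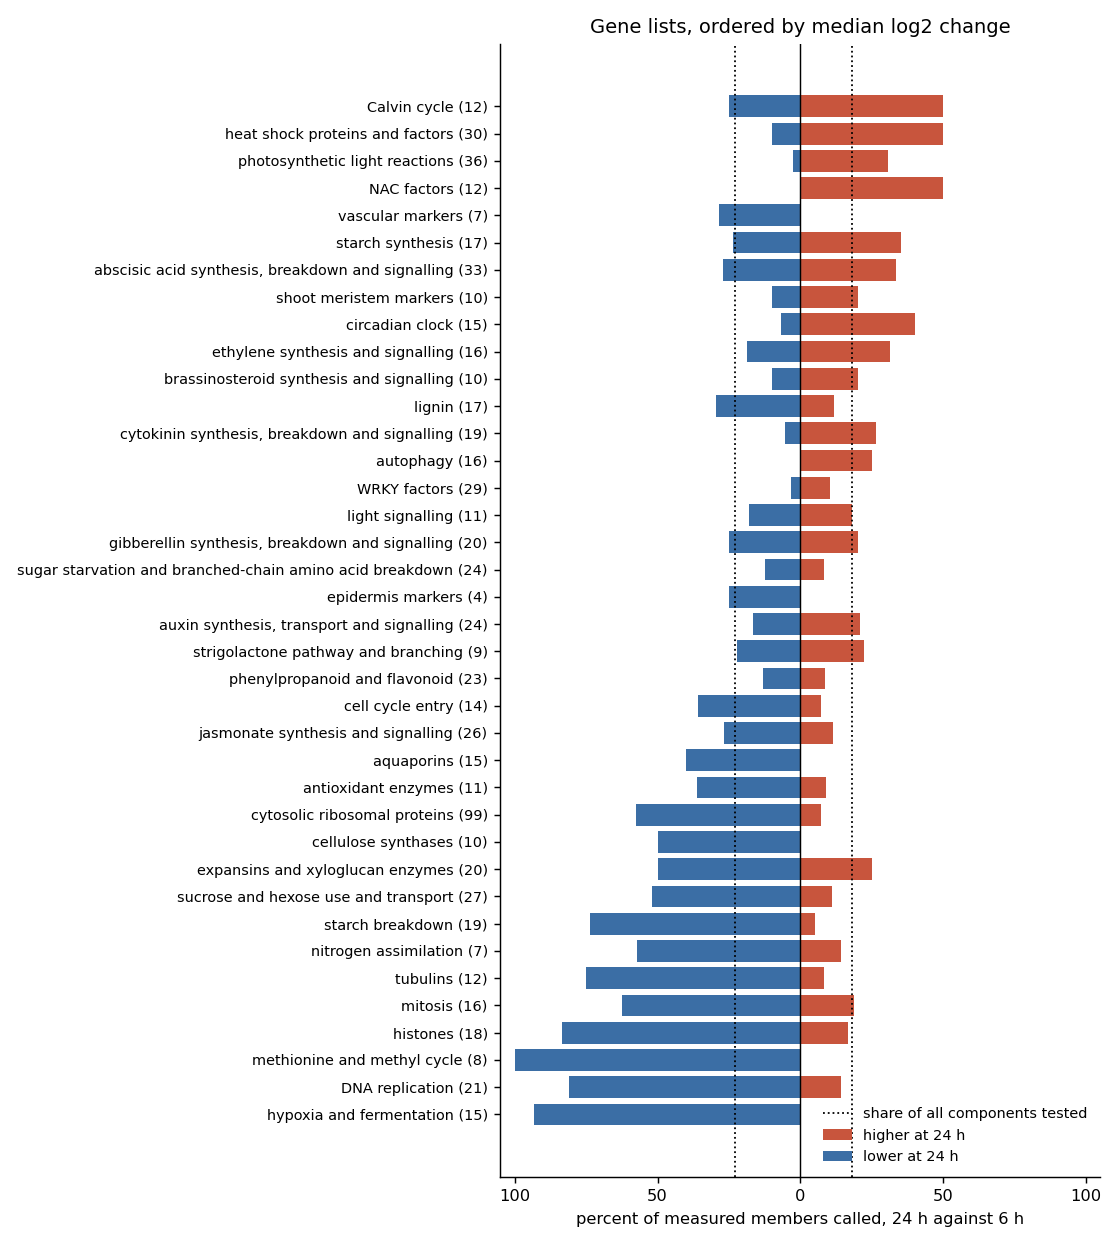
Percent of the measured members of each list called higher (red, to the right) or lower (blue, to the left) at 24 h against 6 h, with the number of members in parentheses and lists ordered by median log2 change. Dotted lines mark the shares of all components tested, 18.2% higher and 23.0% lower; hypoxia and fermentation at the bottom had 14 of 15 members lower.

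Markers of shoot meristem, epidermis and vascular tissue were detected in every library. Of 10 shoot meristem components 2 were higher (20%) and 1 lower (10%), against 18.2 and 23.0% of all components tested. STM averaged 155 ± 11 at 24 h and 136 ± 17.3 at 6 h (SD, n = 4 each). None of the 4 epidermis components was higher and 1 was lower (25%). Of 7 vascular components none was higher and 2 were lower (28.6%), both of them SUC2, which is also in the sucrose list. The median log2 change of the 7 was 0.23. Summed over each list, the 24 h libraries held 1930 to 2215 normalized counts for the meristem, 1372 to 1812 for the epidermis and 1103 to 1435 for vascular tissue, against 1801 to 2102, 1717 to 1869 and 1700 to 1964 at 6 h. The lower vascular sum thus lay in SUC2, and the other 5 vascular members were not called. In bulk buds fewer cells of a type and less RNA per cell cannot be told apart, and the part of cell makeup in the changes above was not tested. Contigs with a hit outside the plants took 0.164 to 0.189% of the counts at 24 h and 0.123 to 0.142% at 6 h, a difference of 0.0425 percentage points (exact permutation test, two-sided, p = 0.0286, the smallest that 4 against 4 allows). Contigs without a hit took 4.52 to 4.83% at 24 h and 3.42 to 3.71% at 6 h.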

How the data were processed

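RNA-seq of polyadenylated RNA was made from crown buds, with 15 libraries run in a single lane. The authors assembled trimmed read pairs with Trinity, together with reads of other leafy spurge studies, annotated contigs by BlastX, and mapped reads with RSEM, whose version is not given in the sources used here; the deposited values are RSEM expected counts per contig and per component. Whole numbers, to a tolerance of 0.005, made up 86.4% of the nonzero component values. Columns holding the authors' own posterior probabilities of differential expression were not used. Libraries were directional. Reads shared by similar contigs were divided by RSEM, so near-identical family members (histones, tubulins, ribosomal proteins) are uncertain as single genes.

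Expected counts were rounded and tested with edgeR 4.0.16 (quasi-likelihood, 4 groups, 15 libraries, median-of-ratios size factors over all libraries, R 4.3.3), with Benjamini-Hochberg adjustment over all 17913 components above 10 normalized counts in every library of 24 h or of 6 h. Changes are log2 of 24 h over 6 h, with standard errors derived from the F statistic. The common coefficient of variation between replicates was 9.96%. Scripts were tested on simulated data. The replicates are separate pools of plants, numbered in the titles.

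The members, the 38 gene lists and the tests were chosen with earlier results of these data known. Components joined a list by the AGI or protein hit of their annotated contig with the most counts. Named genes were the 10 largest increases and decreases among called components with groups that do not overlap, a mean of at least 50 in the higher group and a plant hit that names a product, the 5 largest of each direction among full returns, continued and started responses, and, within lists, the largest called changes, the highest member not called, and members grouped by role; genes in lists but outside these extremes were chosen after their values were seen. Not every component that the list rules gave is named in the text. Left out were, for example, the largest fall of the abscisic acid list (-2.11) and the largest rises of the clock (1.70) and heat shock (1.51) lists. Alternatives were TMM, size factors from the 8 libraries, other filters, DESeq2, limma-trend, other thresholds, fewer libraries and a replicate block.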

Additional observations from a re-analysis of the deposited data

Results flagged for a closer look

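In groups of 4 libraries, 1 library was called far from the other 3 where its gap to the nearest of them relative to the group's whole range exceeded Dixon's 95% critical value. Of 234 groups of 4 examined, over 114 components and the summary shares, 7 met it, and chance alone is expected to do so in about 1 in 20. All 4 groups found at 24 h were set apart by replicate 3, so the values that rest on this library are given here. ACC oxidase (ACO1, comp118906_c0) had 7.72 normalized counts in 24 h replicate 3 and 12.3 to 13.1 in the other 3 libraries, and histone H2AX (comp85027_c0) had 22.5, against 34.6 to 35.7 in the others. The sulfate transporter (comp122548_c0) had 112 in that library and 75 to 77.5 in the others, and the starch synthesis subunit APL2 (comp127803_c0) had 101 and 82.8 to 85.8. At 6 h, allene oxide synthase (AOS, comp115476_c0) had 1822 in replicate 3 and 685 to 864 in the other 3 libraries, and allene oxide cyclase (AOC4, comp123953_c0) had 476 in replicate 1 and 612 to 637 in the others. The share of counts on contigs with a hit outside the plants was 0.123% in 6 h replicate 2 and 0.141 to 0.142% in the other 6 h libraries.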

How the results depend on the processing

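The count of 7378 changed components moved by less than 1.5 times under every other normalization, filter, test and set of libraries tried. It was 7364 with TMM factors (3544 higher and 3820 lower at 24 h, with the median change of all components shifted by 0.025 on the log2 scale), 7470 of 18460 with size factors from the 8 libraries, 6600 of 85220 without a filter, 7422 of 18415 with a filter over any of the 4 time points, 6478 with DESeq2, 6662 with limma-trend, 7153 without the 72 h libraries and 7124 with the 8 libraries alone. Stricter thresholds lowered it. At an adjusted p under 0.01, 2146 components were higher, 500 early responses ended (429 of them full returns) and 297 continued. With at least a 1.5-fold change required, 3499 were called (1750 higher and 1749 lower), 404 ended (360 full returns), 164 continued, 2109 started after 6 h, and 206 list members were called against 387. Leaving out each library of 24 h, 6 h and 0 h in turn gave 6299 to 7564 changed components, with 2706 to 3363 higher and 3593 to 4201 lower, 706 to 961 ended responses (613 to 852 full returns), 468 (without 6 h replicate 2) to 835 (without 24 h replicate 4) that continued, against 766, and 3722 to 4267 that started after 6 h. It gave 340 to 395 called list members, moved 31 of the 76 counts per list and direction by over 1.5 times, 2 of them above 5, and gave a difference of 0.038 to 0.0477 percentage points in the share outside the plants. With the replicate number as a block 7824 components were called (3463 higher and 4361 lower), 7313 of them also called without it. Under the block 1070 early responses ended, against 946, and 1105 continued, against 766. The deviations of same-numbered libraries correlated at 0.06, 0.05, 0.10 and 0.16, not all above 0.1, so the numbers were not taken as pairs, although each 24 h library correlated best with the 6 h library of its own number. The cause of the other shifts was not tested. The number of libraries and their expected counts limit low components most, since only those above 10 normalized counts were tested.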
